A study of Mus musculus with 16 samples.

Results

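The change that obesity makes in gene expression was compared between 2 sorted populations of adipose tissue macrophages, FB and FBC. For each gene the comparison was a difference of differences: the obese minus lean change in FBC minus the obese minus lean change in FB. A positive value means a higher rise, or a smaller fall, in FBC. All 16 of the 16 arrays of the series were used, 4 in each of 4 groups, chosen by the group in their titles, and 11908 of 18193 genes were bright enough to test. FB cells were sorted as F4/80+ and CD11b+ without CD11c, and FBC cells carried all 3 surface proteins. The cells came from perigonadal fat of lean C57BL/6J Lep +/+ mice and of obese C57BL/6J Lep ob/ob mice, aged 12 to 14 weeks. Lep ob/ob mice lack leptin in the whole body, so obesity and the loss of leptin cannot be told apart in these groups. Per the series' design text, both populations were taken from 4 lean and 4 obese mice, but no label says which FB array shares a mouse with which FBC array.

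Macrophages of adipose tissue take up lipid, clear dying adipocytes and remodel the matrix between fat cells. In obesity, cells that carry CD11c accumulate around dying adipocytes, whereas cells without CD11c include tissue-resident macrophages that lie along vessels. The populations share a tissue and a host, so a gene can respond to obesity in both alike, in both to a different size, in opposite directions, or in one of them. A call in one population and no call in the other does not separate these cases, and the difference itself was tested here for each gene.

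Levels are log2(intensity + 16) after quantile normalization, and changes are log2 differences ± SE from limma, called at a Benjamini-Hochberg adjusted p under 0.05. This scale understates the change of dim genes. The sort could be seen in Itgax, which encodes CD11c: its level was 8.59 to 9.10 in lean FB, 8.55 to 9.31 in obese FB, 9.69 to 10.89 in lean FBC and 10.59 to 11.48 in obese FBC. Itgax was higher in FBC by 1.49 ± 0.26 in lean mice (adjusted p = 0.0213) and by 2.20 ± 0.26 in obese mice (adjusted p = 0.000111). Adgre1, which encodes F4/80, was bright on every array at 11.94 to 13.69. Array 4 of lean FB, array 4 of lean FBC and array 4 of obese FB had a 3' to 5' actin signal ratio of 53.3, 48.0 and 45.0, against 1.15 to 10.9 on the other arrays, a ratio that rises when RNA is degraded or amplified from its 3' end. Lean FB array 4 also stood apart in Siglecf, a sialic acid lectin that marks eosinophils: 11.98 there, and 7.98 to 8.53 in its 3 group mates. Counts of calls are also given without these arrays.

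The obesity change differed between the populations for 19 of 11908 genes in limma (0.160% of genes tested), 10 with a higher value in FBC (0.0840%) and 9 with a lower one (0.0756%). The sizes of the called differences ran from 1.08 to 3.61 in either direction, and 838 genes had a difference at least that large. The median SE of a difference was 0.34, against 0.24 for the obesity change in FB. At an unadjusted p under 0.05 there were 1576 genes (13.2%), 947 higher (7.95%) and 629 lower (5.28%). The median difference over all genes tested was 0.07, with 56.0% of genes above 0; without quantile normalization that median was 0.17. The split of the calls moved with the scaling, from 10 higher and 9 lower to 18 and 8 without quantile normalization, 17 and 10 with median centring and 12 and 7 with cyclic loess.

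Obesity changed 701 genes in FB (5.89%) and 1675 in FBC (14.1%), and 339 genes were called in both. The shared genes were 48.4% of the FB calls and 20.2% of the FBC calls. Of them, 336 moved the same way and 3 moved in opposite directions. Among the 1336 genes called in FBC and not in FB, the difference itself passed for 14 (1.05%), and 1068 (79.9%) had a change of the same sign in FB. Among the 362 genes called in FB and not in FBC, the difference passed for 0 in limma, with 159 at an unadjusted p under 0.05, and 306 (84.5%) had the same sign in FBC. The difference passed for 3 of the 183 genes called in both with the larger change in FBC, and for 0 of the 153 with the larger change in FB, where 14 had an unadjusted p under 0.05. It passed for 2 of the 3 genes called in opposite directions and for 0 of the 9871 called in neither population, where 744 had an unadjusted p under 0.05.

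**Figure D1:**
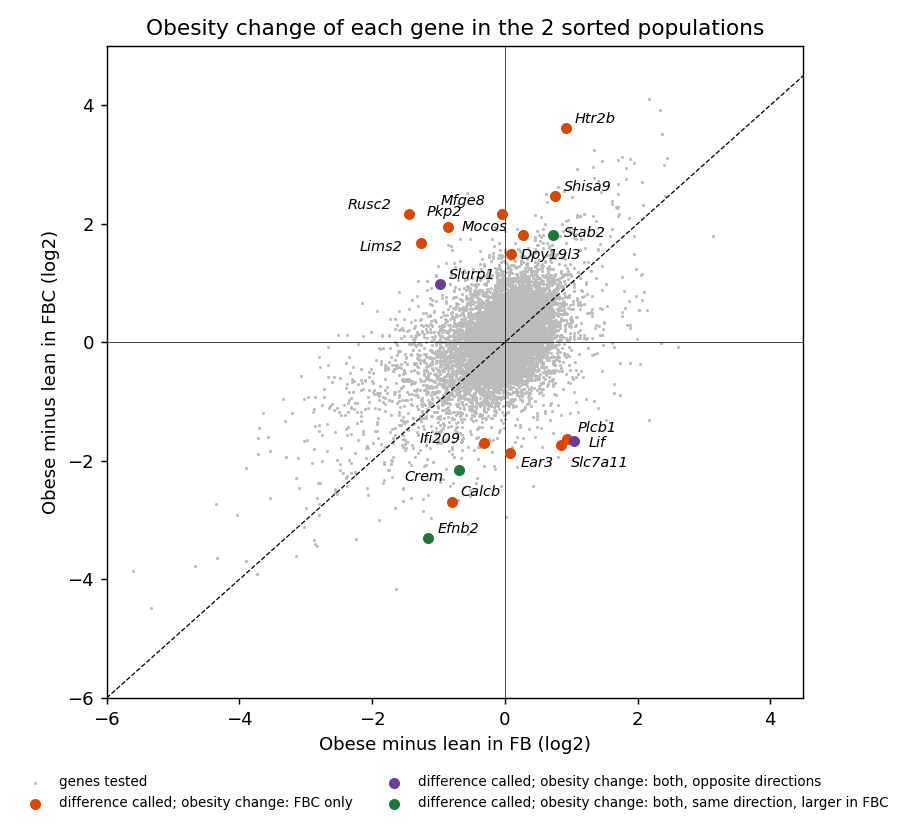
Obese minus lean change of each of 11908 genes in FB (horizontal axis, log2) and in FBC (vertical axis, log2); grey points are genes tested, and coloured points are the 18 named genes whose difference was called, by the population in which obesity changed them. The dashed line marks equal change in both populations, and the coloured points lie off it by 1.08 to 3.61.

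The number of calls changed with nearly every array. Without lean FB array 4 the count was 348 of 11832 genes (2.94%), 189 higher and 159 lower, and all 19 genes kept their call. Those 348 included 125 genes called in FB and not in FBC, 169 called in FBC and not in FB and 30 called in opposite directions. The total count was 67 without obese FB array 1 and 20 without lean FBC array 3. It was 2 without lean FB array 2, obese FBC array 3 or obese FBC array 4, 3 without lean FB array 3 or obese FB array 4, and 4 without lean FBC array 1, lean FBC array 2 or obese FBC array 2. It was 5 without lean FBC array 4, 6 without obese FB array 2, 7 without lean FB array 1 or obese FB array 3, and 8 without obese FBC array 1. Leaving out the 3 arrays of high actin ratio gave 300 of 11641 genes (2.58%), 173 higher and 127 lower, again with all 19 genes kept.

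The count of 0 differences among genes called in FB and not in FBC was not stable. It was 125 without lean FB array 4 and 117 without the 3 arrays of high actin ratio, against 169 and 114 for the genes called in FBC and not in FB. It was 8 without obese FB array 1, 2 without obese FB array 2 or 3 and 1 without lean FBC array 3. With all 16 arrays it was 515 with array weights, 30 with array number as a random block, 3 with the mean of probe sets and 1 without quantile normalization, with median centring or when the actin ratio entered the model. With a pseudocount of 1 the genes called were Lif, Pkp2, Slurp1 and Ear3, and without a filter on low values they were Lif, Pkp2 and Ear3, so that all other named genes lost their call under these 2 settings.

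**Figure D2:**
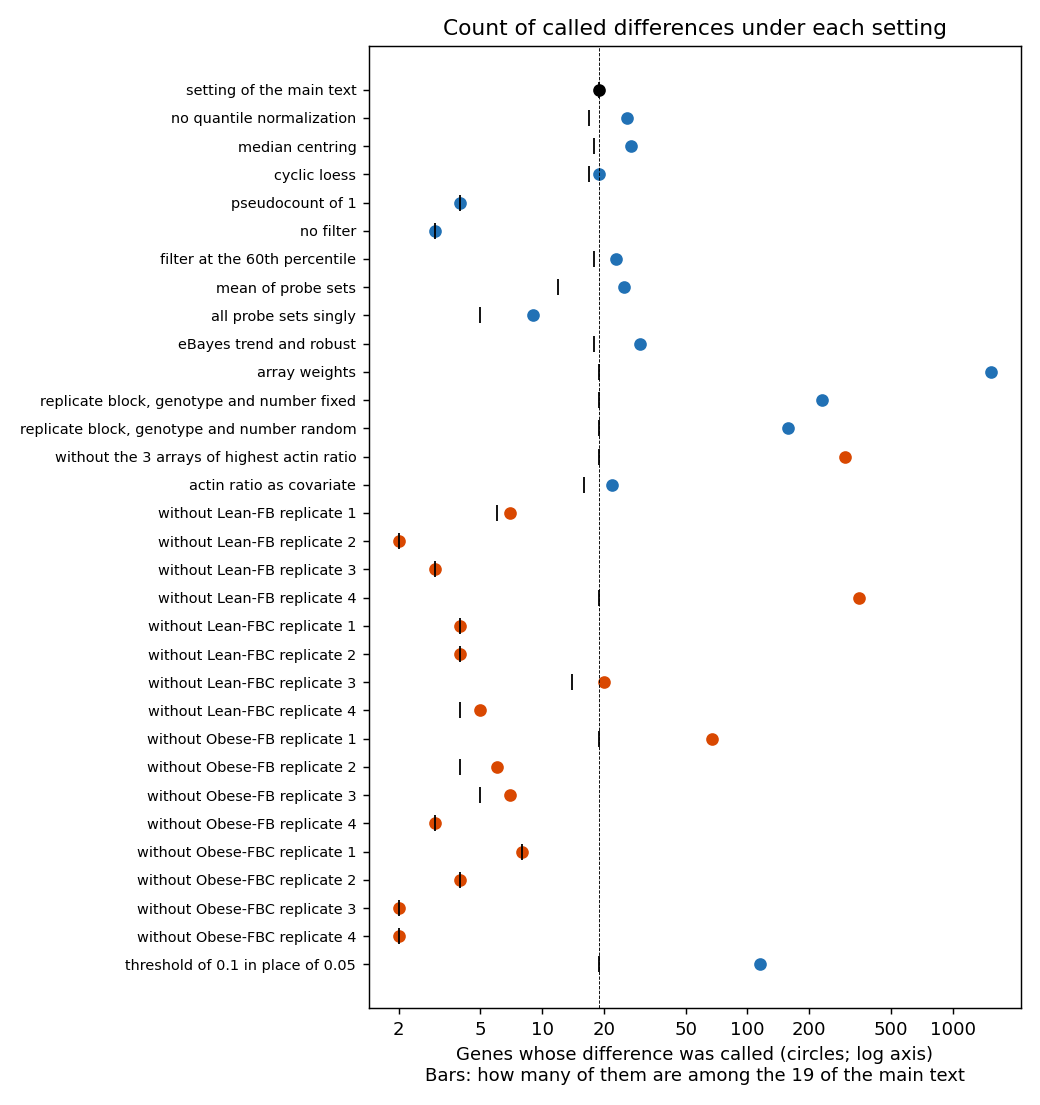
Number of genes whose obesity change differed between FBC and FB (log axis) under each setting; circles are counts of calls, short bars are how many of the 19 genes of the main text were among them, and orange marks settings that leave arrays out. Counts ran from 2 to 348 when 1 array was left out and reached 1536 with array weights.

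The 18 named genes are the called genes with a gene symbol; the remaining one carries the clone symbol BC035044. In FBC the lean and the obese arrays of all 18 did not overlap, as was so for 20.0% of all genes tested, and all 18 were called there. In FB the groups did not overlap for 7 of the 18 (11.8% of all genes). In obese mice FB and FBC did not overlap for 16 of the 18 (17.7% of all genes) and 16 were called between the populations (8.39% of all genes), whereas in lean mice FB and FBC did not overlap for 5 (5.63%) and 1, Calcb, was called (0.193%). These shares describe genes that the difference itself selected. Each array measures a sorted sample in bulk, so fewer cells that express a gene and less RNA of it per cell cannot be told apart.

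Lif and Slurp1 changed in opposite directions in the populations. Lif encodes a cytokine of the IL-6 family. Its level was 7.77, 8.15, 8.21 and 8.89 on the lean FB arrays and 9.23, 9.57, 9.16 and 9.27 on the obese FB arrays. In FBC it was 7.80, 7.43, 7.61 and 7.92 on the lean arrays and 6.42, 5.96, 5.84 and 5.87 on the obese arrays. Every obese FB array lay above every lean one, and every obese FBC array lay below every lean one. Lif rose in FB by 1.05 ± 0.22, a 2.08-fold change (adjusted p = 0.00881), and fell in FBC, with a change of -1.67 ± 0.22, 3.18-fold (adjusted p = 0.000119). The difference of -2.72 ± 0.31 (95% interval -3.38 to -2.06) had the smallest adjusted p of all genes tested, 0.00155 in limma. Lif kept its call with each of the 16 arrays left out, at -2.93 to -2.56, and under all 13 other settings, at -3.04 to -1.39. The smallest of these, -1.39, came from the mean of its 2 probe sets, so the second set showed a smaller difference than the one used. That second set was not bright enough to be tested singly. On obese FBC arrays 3 and 4 Lif did not exceed the array median, so the size of its fall in FBC is imprecise.

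Slurp1 encodes a small secreted protein of the Ly6 family, known mainly from epithelia. It fell in FB from 5.52, 5.36, 6.22 and 5.81 on the lean arrays to 4.81, 4.52, 4.83 and 4.83 on the obese arrays. It rose in FBC from 4.67, 5.58, 5.29 and 4.92 to 5.72, 6.49, 6.18 and 5.98. The groups did not overlap in either population, but in lean FB, obese FB and lean FBC the mean was under the array median, close to background, which makes its size imprecise. It exceeded the array median on 4 of 16 arrays, the fewest that the filter allows, namely obese FBC arrays 2, 3 and 4 and lean FB array 3, so its being tested depended on the group where it was high. The change was -0.98 ± 0.23 in FB (adjusted p = 0.0191) and 0.98 ± 0.23 in FBC (adjusted p = 0.0110). The difference was 1.96 ± 0.33 (adjusted p = 0.0412), and without the filter it did not pass (adjusted p = 0.0593). It was tested with 12 of the 16 arrays left out and kept its call with 6 of them, at 1.81 to 2.11 (adjusted p up to 0.0747, without lean FB array 2, lean FBC arrays 1 or 4, or obese FB arrays 2, 3 or 4). Ceacam1, an adhesion receptor of the immunoglobulin superfamily, was the remaining gene called in opposite directions, with 1.53 ± 0.42 in FB and -1.31 ± 0.42 in FBC. Its difference of -2.84 ± 0.60 did not pass (adjusted p = 0.0672).

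Stab2, Crem and Efnb2 responded to obesity in the same direction in both populations, with the larger change in FBC. Stab2 encodes a scavenger receptor for hyaluronan that also binds phosphatidylserine on dying cells. Its level was 5.96, 5.91, 6.0 and 6.03 in lean FB and 6.80, 6.85, 6.71 and 6.46 in obese FB, and 6.05, 6.27, 6.38 and 6.17 in lean FBC and 7.93, 8.09, 8.10 and 8.01 in obese FBC. All 4 groups were apart, with obese FBC the highest and lean FB the lowest. Stab2 rose by 0.73 ± 0.14 in FB (adjusted p = 0.00498) and by 1.81 ± 0.14 in FBC (adjusted p = 1.90e-06), which is 1.66-fold and 3.52-fold. It exceeded the array median on all 16 arrays, but only by little on the lean ones, so these sizes are imprecise. The difference was 1.08 ± 0.20 (adjusted p = 0.0418) and did not pass with the trend and robust variance model.

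Crem encodes a transcription factor that answers cAMP signals, with repressor isoforms induced early after stimulation. It was at 11.24, 11.69, 11.54 and 11.78 in lean FB and 10.54, 10.97, 10.79 and 11.20 in obese FB, and at 11.60, 11.70, 11.40 and 12.05 in lean FBC and 9.74, 9.36, 9.42 and 9.64 in obese FBC. The obese FBC arrays lay below all others, and the lean groups overlapped each other. Crem fell by 0.69 ± 0.19 in FB (adjusted p = 0.0422) and by 2.15 ± 0.19 in FBC (adjusted p = 2.85e-06), and the difference was -1.46 ± 0.27 (adjusted p = 0.0418). Its other probe sets gave differences of -1.37 and -0.87. The call of Crem was also lost without quantile normalization, with median centring, with cyclic loess and with the mean of probe sets, with the sign kept. Its FB change without lean FB array 4 was -0.61 ± 0.20 and did not pass (adjusted p = 0.0577), which leaves Crem called in FBC and not in FB.

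Efnb2 encodes the membrane ligand ephrin-B2, which signals through Eph receptors on neighbouring cells. It was at 7.25, 7.17, 7.59 and 7.74 in lean FB and 5.60, 6.41, 6.46 and 6.67 in obese FB, and at 8.40, 8.59, 8.73 and 9.38 in lean FBC and 5.48, 6.0, 5.05 and 5.35 in obese FBC. Lean FBC was the highest group and stood apart from the others, while the obese groups overlapped each other. In obese FBC the mean was under the array median, close to background, so the size of the fall in FBC is imprecise. Efnb2 changed by -1.15 ± 0.27 in FB (adjusted p = 0.0177) and by -3.30 ± 0.27 in FBC (adjusted p = 1.94e-06), a difference of -2.15 ± 0.38 (adjusted p = 0.0418). Another probe set gave -1.39, and with the mean of probe sets the call was lost. With single arrays left out, the differences of Stab2, Crem and Efnb2 stayed at 1.0 to 1.14, -1.57 to -1.33 and -2.39 to -1.95, with adjusted p up to 0.125, and the calls held with 3, 3 and 4 of the 16.

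For 5 of the 14 genes called in FBC and not in FB, the 95% interval of the FB change lay within -1 to 1, so that a change of more than 1 in FB was outside it. These were Mfge8, Mocos and Dpy19l3, which rose in FBC, and Ear3 and Ifi209, which fell there. Among all 1336 genes called in FBC and not in FB, 928 had such an interval.

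Mfge8 encodes a secreted bridge between phosphatidylserine on dying cells and integrins on the phagocyte. It was at 8.02, 8.63, 8.90 and 8.55 in lean FB and 9.16, 8.35, 8.36 and 8.09 in obese FB. In FBC it was at 8.28, 8.02, 8.74 and 8.28 on the lean arrays and 11.04, 9.67, 10.74 and 10.50 on the obese arrays. The FB groups overlapped, and the obese FBC arrays were the 4 highest of all 16. Mfge8 rose 4.45-fold in FBC, by 2.16 ± 0.29 (adjusted p = 0.000156), against -0.04 ± 0.29 in FB (95% interval -0.66 to 0.58, adjusted p = 0.964). The difference was 2.19 ± 0.41 (adjusted p = 0.0457). The call was lost when the actin ratio entered the model (adjusted p = 0.0534), with a pseudocount of 1 (adjusted p = 0.0787) or without the filter (adjusted p = 0.0597).

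Mocos encodes the sulfurase that activates the molybdenum cofactor of xanthine dehydrogenase. Its level was 7.91 to 8.61 in lean FB, 8.16 to 8.68 in obese FB and 7.86 to 8.20 in lean FBC, and reached 9.88, 9.68, 10.10 and 9.69 in obese FBC. Obese FBC was apart from all other arrays. The change was 1.81 ± 0.19 in FBC (adjusted p = 8.71e-06) and 0.28 ± 0.19 in FB (95% interval -0.12 to 0.67, adjusted p = 0.438), a difference of 1.53 ± 0.26 (adjusted p = 0.0418).

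Dpy19l3 encodes an enzyme that adds mannose to tryptophan residues of secreted proteins. Its level lay at 6.96 to 7.60 in lean FB, 7.15 to 7.55 in obese FB and 7.23 to 7.87 in lean FBC, against 9.17, 9.05, 9.02 and 9.21 in obese FBC. The obese FBC arrays were tight and above all others. The change was 1.49 ± 0.18 in FBC (adjusted p = 4.63e-05) and 0.10 ± 0.18 in FB (adjusted p = 0.805), and the difference was 1.39 ± 0.25 (adjusted p = 0.0418). The other probe sets gave smaller differences of 0.54 and 0.57, and with the mean of probe sets the call was lost. With single arrays left out, Mfge8 was at 2.01 to 2.47 and called with 4 of 16, Mocos at 1.39 to 1.63 and called with 4, and Dpy19l3 at 1.26 to 1.47 and called with 2, with adjusted p up to 0.128, 0.106 and 0.125.

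Ear3 belongs to the eosinophil-associated ribonucleases, a multigene family of the mouse that macrophages also express and whose members its probe set may not separate. It was at 10.28, 10.08, 10.42 and 9.95 in lean FB and 10.46, 10.33, 10.25 and 10.02 in obese FB. In FBC it was at 10.49, 10.89, 11.31 and 11.41 on the lean arrays and 9.54, 9.04, 8.90 and 9.19 on the obese arrays. Lean FBC lay above both FB groups and obese FBC below them, while the FB groups overlapped. Ear3 changed by -1.86 ± 0.21 in FBC (adjusted p = 2.44e-05) and by 0.08 ± 0.21 in FB (95% interval -0.36 to 0.53, adjusted p = 0.874), a difference of -1.94 ± 0.30 (adjusted p = 0.0251). It passed under all 13 other settings, at -2.05 to -1.74, and with 12 of 16 arrays left out, over a range of -2.12 to -1.80 for all 16, and missed without lean FB array 2 or obese FBC arrays 2, 3 or 4 (adjusted p up to 0.0761).

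Eosinophil markers are given here beside Ear3. Of 12 marker genes 5 were tested, of which obesity lowered 3 in FBC (5.95% of all genes) and 1 in FB (4.07%), with a summed intensity of 4344 to 18790 in lean FB, 752 to 5956 in obese FB, 5651 to 11392 in lean FBC and 531 to 1318 in obese FBC. Lean FB array 4 held the highest sum of lean FB, 18790. Lean FBC array 4 held that of lean FBC, 11392, against 5651 to 6004 on its group mates. Siglecf was 9.65 on lean FBC array 4, against 7.84 to 8.65, and Ear3 was at its highest there, 11.41. With lean FBC array 4 left out the difference of Ear3 was -1.80 ± 0.29 (adjusted p = 0.0358 in limma). Il5ra, Epx and Prg2, which define the cell type, were among the genes not tested. Over the 5 tested genes the median difference was 0.31, with 3 above 0 (56.0% of all genes). Without lean FB array 4 that median was -1.25 over 4 tested genes. Without the 3 arrays of high actin ratio it was -0.83 over 4. The difference of Ear3 was negative in each of these fits, and the part of eosinophils in it was not tested.

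Ifi209 encodes an interferon-inducible protein of the PYHIN family of nucleic acid sensors. Its level was 11.01 to 11.12 in lean FB, 10.43 to 11.02 in obese FB and 10.54 to 10.95 in lean FBC, against 9.36, 8.73, 9.0 and 9.19 in obese FBC. Only the obese FBC arrays were below the range of the other groups. The change was -1.69 ± 0.18 in FBC (adjusted p = 1.10e-05) and -0.31 ± 0.18 in FB (95% interval -0.68 to 0.07, adjusted p = 0.361), and the difference was -1.38 ± 0.25 (adjusted p = 0.0418). A further probe set gave -1.27. The call was also lost with median centring and cyclic loess, and it held with 3 of 16 arrays left out, at -1.49 to -1.27 (adjusted p up to 0.125).

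For the other 8 named genes called in FBC and not in FB, the interval of the FB change reached beyond -1 or 1, so they cannot be said to respond in FBC alone. In 3 of them the FB change had the same sign as in FBC: Htr2b, Shisa9 and Calcb. Htr2b encodes the serotonin receptor 2B, which couples to phospholipase C. It was at 4.49, 4.21, 4.37 and 4.23 in lean FB and 5.77, 4.49, 5.41 and 5.33 in obese FB, and at 4.19, 4.13, 4.84 and 5.48 in lean FBC and 8.58, 8.62, 8.08 and 7.77 in obese FBC. Obese FBC was the one group above the array median, and its arrays lay above all others. Htr2b passed the filter through these 4 arrays alone, so it had to be higher there to be tested, and no fold is given over groups close to background. It rose in FBC by 3.61 ± 0.31 on the log2 scale (adjusted p = 2.65e-06), with 0.92 ± 0.31 in FB (adjusted p = 0.0889). The difference was 2.68 ± 0.44 (adjusted p = 0.0348), and without the filter it did not pass (adjusted p = 0.0523).

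Shisa9, known as an auxiliary protein of AMPA-type glutamate receptors, showed the same order of groups. It ran from 4.42 to 5.12 in lean FB, 5.02 to 5.85 in obese FB and 4.91 to 5.15 in lean FBC to 7.63, 7.88, 7.14 and 7.49 in obese FBC, where alone it exceeded the array median, so it too was tested through obese FBC alone. The change was 2.47 ± 0.22 in FBC (adjusted p = 2.85e-06) and 0.75 ± 0.22 in FB (adjusted p = 0.0539), and the difference was 1.72 ± 0.31 (adjusted p = 0.0418), which did not pass without the filter (adjusted p = 0.0593). With the mean of its 3 probe sets it was 1.08 ± 0.21.

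Calcb encodes the beta form of calcitonin gene-related peptide, a neuropeptide that dilates vessels. Its level was 6.98, 7.70, 7.82 and 8.33 in lean FBC, against 5.53 to 5.92 in lean FB, 4.37 to 5.28 in obese FB and 4.73 to 5.36 in obese FBC. Lean FBC stood above every other array, and the obese groups overlapped below the array median. Calcb fell by 2.69 ± 0.26 in FBC (adjusted p = 5.44e-06), with -0.80 ± 0.26 in FB (adjusted p = 0.0762). The difference was -1.90 ± 0.36 (adjusted p = 0.0457), and without the filter it did not pass (adjusted p = 0.0597). Calcb exceeded the array median on 5 of 16 arrays, all 4 of lean FBC and lean FB array 2, so its being tested depended on the group where it was high. It was the named gene that also differed between the populations in lean mice, by 2.03 ± 0.26 (adjusted p = 0.00286). Its call was also lost without quantile normalization and when the actin ratio entered as a covariate. With single arrays left out Htr2b ranged over 2.43 to 2.96, Shisa9 over 1.58 to 1.86 and Calcb over -2.13 to -1.69. The calls held with 6 of 12, 3 of 12 and 3 of 16 arrays, and adjusted p rose up to 0.0790, 0.125 and 0.125.

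In Rusc2, Lims2 and Pkp2 the FBC change was a rise and the FB value was below 0 without passing the test. Pkp2 encodes plakophilin, a plaque protein of desmosomes. Its level was 6.04, 5.93, 6.41 and 5.52 in lean FB and 5.31, 4.62, 5.51 and 5.06 in obese FB, and 5.84, 5.13, 5.29 and 5.63 in lean FBC and 7.96, 6.95, 7.07 and 7.73 in obese FBC. Every obese FB array lay below every lean one, and every obese FBC array above every lean one. The change was 1.95 ± 0.27 in FBC (adjusted p = 0.000170) and -0.85 ± 0.27 in FB (adjusted p = 0.0719). The difference was 2.80 ± 0.38 with an adjusted p of 0.00739, next to that of Lif. It passed with each of the 16 arrays left out, at 2.62 to 2.95, and under all 12 other settings that gave a value, at 2.68 to 3.74. A further probe set gave 1.20, which did not pass.

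Rusc2 encodes an adaptor of vesicle transport with RUN and SH3 domains, and had the largest called difference. It was at 5.56, 7.46, 7.32 and 7.32 in lean FB and 5.31, 6.17, 5.61 and 4.79 in obese FB, and at 5.44, 5.95, 4.55 and 4.67 in lean FBC and 6.32, 8.07, 7.70 and 7.17 in obese FBC. Lean FB array 1 lay apart from the other lean FB arrays and among the obese ones, so the FB groups overlapped. Rusc2 rose by 2.16 ± 0.46 in FBC (adjusted p = 0.00571), with -1.45 ± 0.46 in FB (adjusted p = 0.0742), a difference of 3.61 ± 0.65 (adjusted p = 0.0418). With the mean of its 2 probe sets the difference was 2.17 and did not pass.

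Lims2 encodes a LIM-domain adaptor of focal adhesions, where cells hold on to matrix. It was at 7.69, 7.78, 7.71 and 5.97 in lean FB and 5.20, 5.80, 6.78 and 6.31 in obese FB, and at 6.75, 6.83, 7.06 and 6.0 in lean FBC and 7.98, 8.34, 8.47 and 8.54 in obese FBC. Lean FB array 4 lay among the obese FB arrays, far from the other lean ones. The difference was 2.93 ± 0.55 (adjusted p = 0.0454), from 1.67 ± 0.39 in FBC (adjusted p = 0.00982) and -1.26 ± 0.39 in FB (adjusted p = 0.0663). Without lean FB array 4 the FB change of Lims2 was -1.70 ± 0.31 and passed (adjusted p = 0.00232), which turns it into a gene called in opposite directions. So did the FB change of Pkp2, at -1.0 ± 0.28 (adjusted p = 0.0263), while that of Rusc2 did not, at -1.31 ± 0.50 (adjusted p = 0.0997). The call of the difference held with 4 of 16 arrays left out for Rusc2, at 3.35 to 4.05, and with 4 for Lims2, at 2.67 to 3.37, with adjusted p up to 0.125 in each. The summed intensity of fibroblast and preadipocyte markers was 35666, 42782, 42599 and 15718 on the lean FB arrays and 9523 to 12627 on the obese ones, against 14362 to 31822 in lean FBC and 12617 to 32425 in obese FBC. Array 4 was the lowest of the lean FB arrays in this sum, as in Lims2 and Pkp2, whereas the lowest for Rusc2 was array 1. The part of these cells in the 3 genes was not tested.

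Slc7a11 and Plcb1 fell in FBC, with FB values above 0 that did not pass. Slc7a11 encodes the transport subunit of the cystine and glutamate exchanger, which feeds glutathione synthesis. It was at 6.78, 6.43, 6.36 and 7.55 in lean FB and 6.80, 8.11, 8.09 and 7.47 in obese FB, and at 7.52, 7.79, 7.62 and 8.21 in lean FBC and 6.53, 5.66, 5.71 and 6.32 in obese FBC. The FB groups overlapped through lean FB array 4, which lay above obese FB arrays 1 and 4, and the FBC groups did not overlap. The change was -1.73 ± 0.32 in FBC (adjusted p = 0.00214) and 0.84 ± 0.32 in FB (adjusted p = 0.141), and the difference was -2.57 ± 0.45 (adjusted p = 0.0418). A further probe set gave -1.38, and with the mean of probe sets the call was lost. On obese FBC arrays 2 and 3 Slc7a11 did not exceed the array median, so the size of its fall in FBC is imprecise.

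Plcb1 encodes a phospholipase C that G protein-coupled receptors activate. It was at 8.0, 8.05, 8.17 and 9.55 in lean FB and 8.80, 9.53, 9.35 and 9.85 in obese FB, and at 8.71, 8.58, 7.95 and 9.22 in lean FBC and 7.29, 6.98, 6.65 and 7.03 in obese FBC. Lean FB array 4 was more than a unit above the other lean FB arrays and within the obese FB range. The change was -1.63 ± 0.34 in FBC (adjusted p = 0.00477) and 0.94 ± 0.34 in FB (adjusted p = 0.114), a difference of -2.57 ± 0.48 (adjusted p = 0.0418). A second probe set of Plcb1 gave a difference of the other sign, 0.51 ± 0.49 (adjusted p = 0.690), so the direction rests on the brighter probe set. The call was also lost with median centring and with the mean of probe sets. Without lean FB array 4 the FB changes passed for both genes, at 1.09 ± 0.31 for Slc7a11 (adjusted p = 0.0293) and 1.31 ± 0.28 for Plcb1 (adjusted p = 0.00564). With single arrays left out the difference held its call with 4 of 16 for Slc7a11, at -2.85 to -2.40, and with 3 for Plcb1, at -2.93 to -2.37, with adjusted p up to 0.125 in each. The summed intensity of inflammatory monocyte genes was also highest on array 4 among the lean FB arrays, at 28085, 29602, 29136 and 56187, and its part in these 2 genes was not tested.

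**Figure D3:**
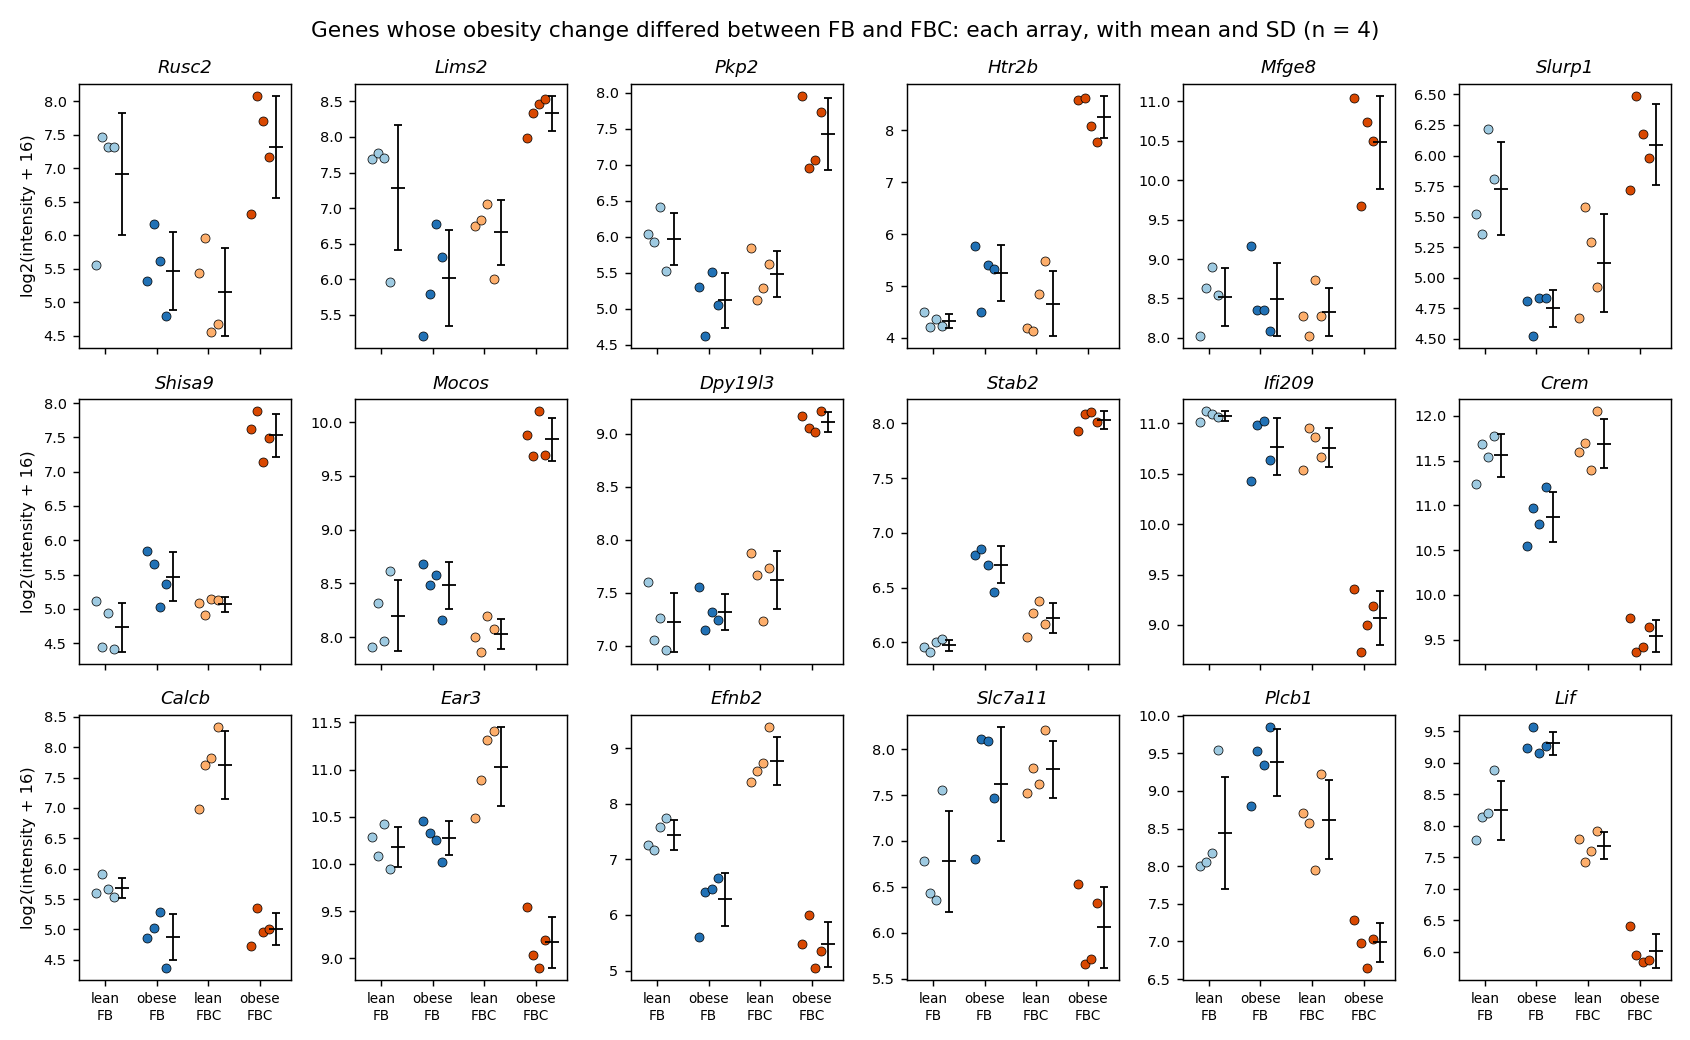
Level of the 18 named genes on each array (points, log2(intensity + 16)) in lean FB, obese FB, lean FBC and obese FBC; the bar beside each group is its mean with SD (n = 4 arrays), and each panel has its own vertical range. In every panel the lean and obese FBC points do not overlap, and in 7 of the 18 the FB points do not overlap.

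**Figure D4:**
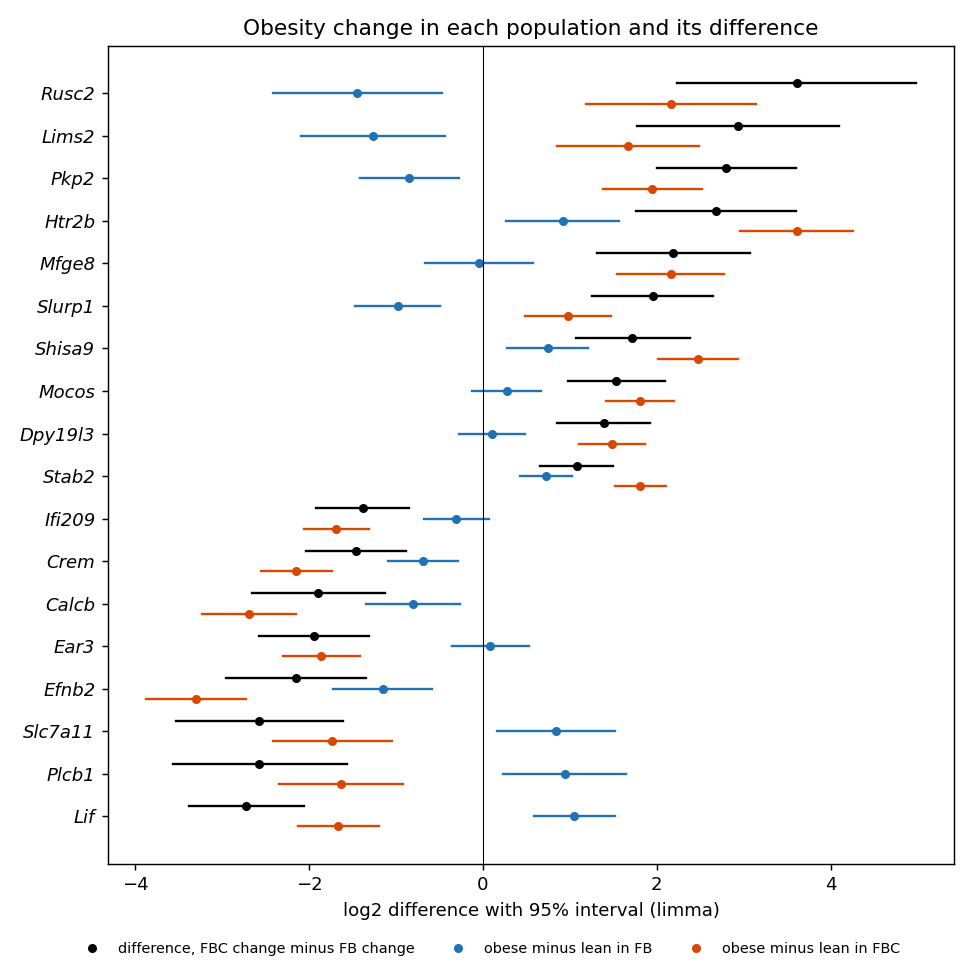
Obese minus lean change in FB (blue) and FBC (orange) and their difference (black) for the 18 named genes, as log2 values with 95% intervals from limma. The black intervals lie away from 0 for all 18, and the blue ones of Mfge8, Mocos, Dpy19l3, Ear3 and Ifi209 cross 0 within -1 to 1.

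Promoter sequence was available for 10 of the 18 named genes in a RefSeq table of the GRCm38.p6 build, and the 250 bases before each first start were searched for 7 short motifs on both strands, whose letters were chosen after the sequences were seen. A match is a description of letters, not of binding. The AP-1 motif TGANTCA was in 3 of the 10 (6.75% of all promoters), the antioxidant response element core TGACNNNGC in 3 (10.2%), the PU.1 core GAGGAA in 2 (23.3%) and the C/EBP-ATF composite TGATGNAA in 1 (3.45%). The CRE TGACGTCA (1.55%), the E-box CACGTG (6.02%) and the ISRE core, a pair of GAAA spaced by NN (2.98%), matched in 0 of the 10. Shown 5′ to 3′ on the gene's own strand, with the matches in capitals, are those of a gene that moved in opposite directions, a gene that fell in FBC and a gene that rose there. They lie at chr11:4257318-4257567 (plus strand) for Lif, chr3:50443614-50443863 (minus strand) for Slc7a11 and chr7:79149061-79149310 (minus strand) for Mfge8. The capitals mark the antioxidant core, read on the other strand, and then AP-1 in Lif, the composite once on each strand in Slc7a11, and the PU.1 core, read on the other strand, in Mfge8.
Lif: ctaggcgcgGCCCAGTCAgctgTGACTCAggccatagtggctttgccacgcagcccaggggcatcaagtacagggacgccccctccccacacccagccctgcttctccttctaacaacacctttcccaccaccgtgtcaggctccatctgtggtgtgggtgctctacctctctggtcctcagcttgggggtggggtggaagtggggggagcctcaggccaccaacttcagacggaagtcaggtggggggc
Slc7a11: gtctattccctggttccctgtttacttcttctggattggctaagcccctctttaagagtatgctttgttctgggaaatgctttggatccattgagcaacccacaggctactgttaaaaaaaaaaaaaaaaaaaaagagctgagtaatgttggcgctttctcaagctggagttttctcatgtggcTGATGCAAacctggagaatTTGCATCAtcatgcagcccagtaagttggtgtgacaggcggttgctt
Mfge8: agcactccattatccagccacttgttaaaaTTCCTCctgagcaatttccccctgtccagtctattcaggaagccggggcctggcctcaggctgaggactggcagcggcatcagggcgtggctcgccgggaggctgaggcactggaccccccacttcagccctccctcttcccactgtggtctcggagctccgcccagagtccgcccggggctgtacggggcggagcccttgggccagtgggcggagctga

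Of the genes called in FB and not in FBC, 4 are given here, picked after their values were seen: the 3 of smallest p for the difference, and Cd177, which comes after Pag1, Susd1, Pde10a and F2r in that order. Gsta3, a glutathione transferase, changed by -1.13 ± 0.19 in FB and 0.17 ± 0.19 in FBC, a difference of 1.29 ± 0.26 (adjusted p = 0.0611). Its mean was under the array median in obese FB, lean FBC and obese FBC, close to background, so these sizes are imprecise. Fpr2, a receptor for formylated peptides that guides phagocytes, was at 9.82, 9.91, 9.90 and 11.45 in lean FB and 11.62, 12.29, 12.37 and 12.37 in obese FB. In FBC it was at 9.29, 8.91, 8.85 and 9.22 on the lean arrays and 8.76, 8.05, 8.74 and 9.33 on the obese arrays. The FB groups did not overlap, with lean FB array 4 nearest to the obese arrays, and the FBC groups overlapped. Fpr2 rose by 1.89 ± 0.33 in FB, with -0.35 ± 0.33 in FBC, and its difference of -2.24 ± 0.47 did not pass (adjusted p = 0.0672).

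Cttn, which encodes the actin-binding protein cortactin, fell in FB (-1.60 ± 0.37, adjusted p = 0.0168), with 0.85 ± 0.37 in FBC and a difference of 2.46 ± 0.52 (adjusted p = 0.0676). Cd177, a surface protein best known from neutrophils and monocytes, rose in FB (2.61 ± 0.42, adjusted p = 0.00157), with -0.07 ± 0.42 in FBC and a difference of -2.68 ± 0.59 (adjusted p = 0.0687). The adjusted p of these 4 genes lay just above the threshold, and 115 genes in all passed at 0.1. At the other side of the classes, Hgsnat, a lysosomal acetyltransferase, rose in FBC by 1.71 ± 0.17, with 0.53 ± 0.17 in FB and a difference of 1.18 ± 0.23 (adjusted p = 0.0604). Agpat3, an acyltransferase of phospholipid synthesis, rose in FBC by 1.31 ± 0.19, with -0.08 ± 0.19 in FB and a difference of 1.39 ± 0.27 (adjusted p = 0.0507), the nearest to the threshold of the genes that missed it.

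Pathway lists, chosen with earlier results of these data known, are described by counts and medians beside those of all genes. The median difference of all genes was 0.07, and 56.0% of them had a difference above 0, the share to set beside each such count below. The 3 list members called with all arrays were Mfge8 and Stab2, of 27 tested genes of phagocytosis and efferocytosis, and Slc7a11, of 29 amino acid stress genes. In the phagocytosis list 22 of 27 members had a difference above 0, with a median of 0.60, from -0.11 in FB and 0.54 in FBC. Over the 4 scalings tried that median ran from 0.32 to 0.60. It was 0.62 without lean FB array 4. Without the 3 arrays of high actin ratio it was 0.36, from -0.19 and 0.31. The summed intensity of the list on lean FBC array 4 was 40836, against 58587 to 72507 on its group mates. On lean FB array 4 it was 49184, against 69224 to 71503. Gas6 and C1qc, a bridge to dying cells and a complement subunit that opsonizes them, followed Mfge8. Their differences of 2.02 ± 1.11 (adjusted p = 0.439) and 1.79 ± 0.78 (adjusted p = 0.337) did not pass with all arrays. Without the 3 arrays of high actin ratio C1qc passed as higher, beside Mfge8 and Stab2 (1.49% of all genes in that fit).

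Lysosomal enzymes and membrane proteins, which digest what macrophages take up, had a difference above 0 for 40 of 41 members. The median was 0.57, from 0.08 in FB and 0.61 in FBC. In limma 0 members passed with all arrays, 17 had an unadjusted p under 0.05 with a higher value (7.95% of all genes) and 0 with a lower one (5.28%). Obesity raised 15 of the 41 in FBC (8.12% of all genes) and 3 in FB (1.81%). Their summed intensity was 96551 to 120211 in lean FB, 91423 to 130125 in obese FB, 93245 to 115906 in lean FBC and 148483 to 161295 in obese FBC, so obese FBC was above all other arrays.

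Without lean FB array 4, 4 lysosomal members passed as higher, as did 1.60% of all genes in that fit: Glb1, Gusb, Pla2g15 and Slc17a5. Gusb, beta-glucuronidase, was at 10.28, 10.16, 10.33 and 10.18 in lean FB and 11.20, 11.13, 11.16 and 10.91 in obese FB, and at 10.32, 10.49, 10.84 and 10.65 in lean FBC and 12.78, 12.60, 12.26 and 12.60 in obese FBC. Its difference was 1.13 ± 0.23 with all arrays (adjusted p = 0.0611) and 1.14 ± 0.24 without lean FB array 4 (adjusted p = 0.0212). Pla2g15, the lysosomal phospholipase A, had 2.49 ± 0.55 with all arrays (adjusted p = 0.0687) and 2.77 ± 0.52 without that array (adjusted p = 0.0158). For both genes the difference was of similar size in either fit. Array 4 was the lowest of lean FB for Glb1, Pla2g15 and Slc17a5. The adjusted p also depends on the p-values of all other genes in a fit, so a call can be gained without a larger difference. Without the 3 arrays of high actin ratio, Gusb and Pla2g15 passed as higher, as did 1.49% of all genes in that fit. In lists of related function the median difference was 0.36 for 13 cathepsins, 0.28 for 17 proton pump subunits, 0.52 for 24 genes of lipid-associated macrophages and 0.52 for 18 genes of cholesterol efflux. In limma 0 were called in each with all arrays, and 4, 3, 5 and 4 were higher at an unadjusted p under 0.05 (7.95% of all genes). In the fit without lean FB array 4, 1 member of each passed: Ctso (1.40 ± 0.34), Atp6v0a1 (1.56 ± 0.40) and Gpnmb (2.12 ± 0.50) as higher and Olr1 (-3.25 ± 0.71) as lower, against 1.60% and 1.34% of all genes. That array was the lowest of lean FB for Ctso, Atp6v0a1 and Gpnmb and the highest for Olr1. These calls thus follow in part from the choice of array. Over the 4 scalings tried, the median of the lysosomal list ran from 0.38 to 0.58, but those of the cathepsins (0.03 to 0.37), lipid-associated genes (0.05 to 0.52) and proton pump subunits (-0.03 to 0.35) came close to 0 or below it with median centring.

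Genes of inflammatory monocytes, the blood cells that enter inflamed tissue and become macrophages, had values on the other side of 0. Of 16 members tested 2 had a difference above 0, and the median was -1.38, from 0.91 in FB and -0.28 in FBC, and -1.54 to -1.32 over the 4 scalings. In limma 0 passed with all arrays, and 9 had a lower value at an unadjusted p under 0.05 (5.28% of all genes). Obesity raised 6 of the 16 in FB (1.81% of all genes) and lowered 5 in FBC (5.95%). The summed intensity was 28085 to 56187 in lean FB, 44928 to 65763 in obese FB, 22946 to 31695 in lean FBC and 16301 to 19997 in obese FBC; lean FB array 4, at 56187, lay within the obese FB range, and the other lean FB arrays were at 28085 to 29602.

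Without the 3 arrays of high actin ratio, 7 of the 16 monocyte genes passed, all as lower (1.09% of all genes). Without lean FB array 4, 10 of the 16 passed, all as lower, as did 1.34% of all genes in that fit: Ccr2, Treml4, Hp, Chil3, Vcan, F10, Ms4a4c, Sirpb1a, Cd177 and Trem3. That array had the highest monocyte sum of lean FB, and leaving it out moved the median FB change of the list from 0.91 to 1.27. The count thus follows in part from the choice of array and is no separate support. Ccr2, the chemokine receptor that lets monocytes leave the marrow, was at 12.36, 11.79, 12.08 and 12.10 in lean FB and 12.33, 12.47, 12.26 and 12.49 in obese FB, and at 11.83, 11.88, 12.12 and 12.18 in lean FBC and 11.17, 11.00, 11.45 and 10.94 in obese FBC. Its difference was -1.17 ± 0.24 with all arrays (adjusted p = 0.0611) and -1.17 ± 0.25 without lean FB array 4 (adjusted p = 0.0237). Ccr2 thus gained its call without a larger difference or a smaller SE. Vcan, a large matrix proteoglycan of monocytes, was at 8.88, 9.04, 9.30 and 10.37 in lean FB and 9.51, 10.83, 10.82 and 10.82 in obese FB, and at 8.22, 7.63, 7.35 and 7.49 in lean FBC and 6.44, 6.35, 6.56 and 6.62 in obese FBC. Lean FB array 4 was the highest of the lean FB arrays for Vcan, and obese FBC was the lowest group. Its difference was -2.28 ± 0.47 with all arrays (adjusted p = 0.0611) and -2.60 ± 0.40 without that array (adjusted p = 0.00575). Cd177 moved from -2.68 ± 0.59 to -3.15 ± 0.46 (adjusted p = 0.00414), with an FB change of 3.08 ± 0.34 and an FBC change of -0.07 ± 0.31 in the latter fit.

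Genes of classic activation, the inflammatory programme that microbial products induce, had a median difference of -0.32 over 22 members (-0.70 to -0.27 over the 4 scalings), with 6 above 0. Obesity lowered 11 of the 22 in FBC (5.95% of all genes) and 4 in FB (4.07%). In limma 0 differences passed with all arrays and 7 had a lower value at an unadjusted p under 0.05 (5.28% of all genes). Il6, Il23a, Ptgs2 and Cd80 passed as lower without lean FB array 4 (1.34% of all genes). That array was the highest of lean FB for Il23a, Ptgs2 and Cd80. Il6, an inflammatory cytokine, was at 13.37, 13.17, 13.22 and 13.19 in lean FB, 11.36, 12.80, 12.68 and 12.36 in obese FB, 12.99, 13.34, 13.51 and 13.42 in lean FBC and 10.18, 10.25, 11.11 and 9.49 in obese FBC. Its difference was -2.12 ± 0.44 with all arrays (adjusted p = 0.0666) and -2.09 ± 0.47 without that array (adjusted p = 0.0294). Il6 thus gained its call without a larger difference or a smaller SE. Without the 3 arrays of high actin ratio, Ptgs2 and Cd80 of this list passed as lower (1.09% of all genes), and Il6 and Il23a did not.

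Alternative activation, the programme that IL-4 induces, had negative medians in both populations: those of its 26 tested members were -0.95 in FB and -0.93 in FBC, and obesity lowered 12 in FB (4.07% of all genes) and 14 in FBC (5.95%). The median difference was 0.24, and 0 members passed in limma with all arrays. At an unadjusted p under 0.05, 3 were higher (7.95% of all genes) and 3 lower (5.28%). Chil3 (-2.56 ± 0.50) and Fn1 (-0.93 ± 0.21) passed as lower without lean FB array 4 (1.34% of all genes). That array was the highest of lean FB for Chil3, so the call of Chil3 follows in part from the choice of array. Interferon-stimulated genes had medians of -0.73 and -0.60 over 26 members and a median difference of 0.04. MHC class II genes had a median difference of -0.02 over 16 members, and macrophage markers one of -0.03 over 11, both with a sign that changed between scalings. A difference too small to pass does not show that the populations responded alike.

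**Figure D5:**
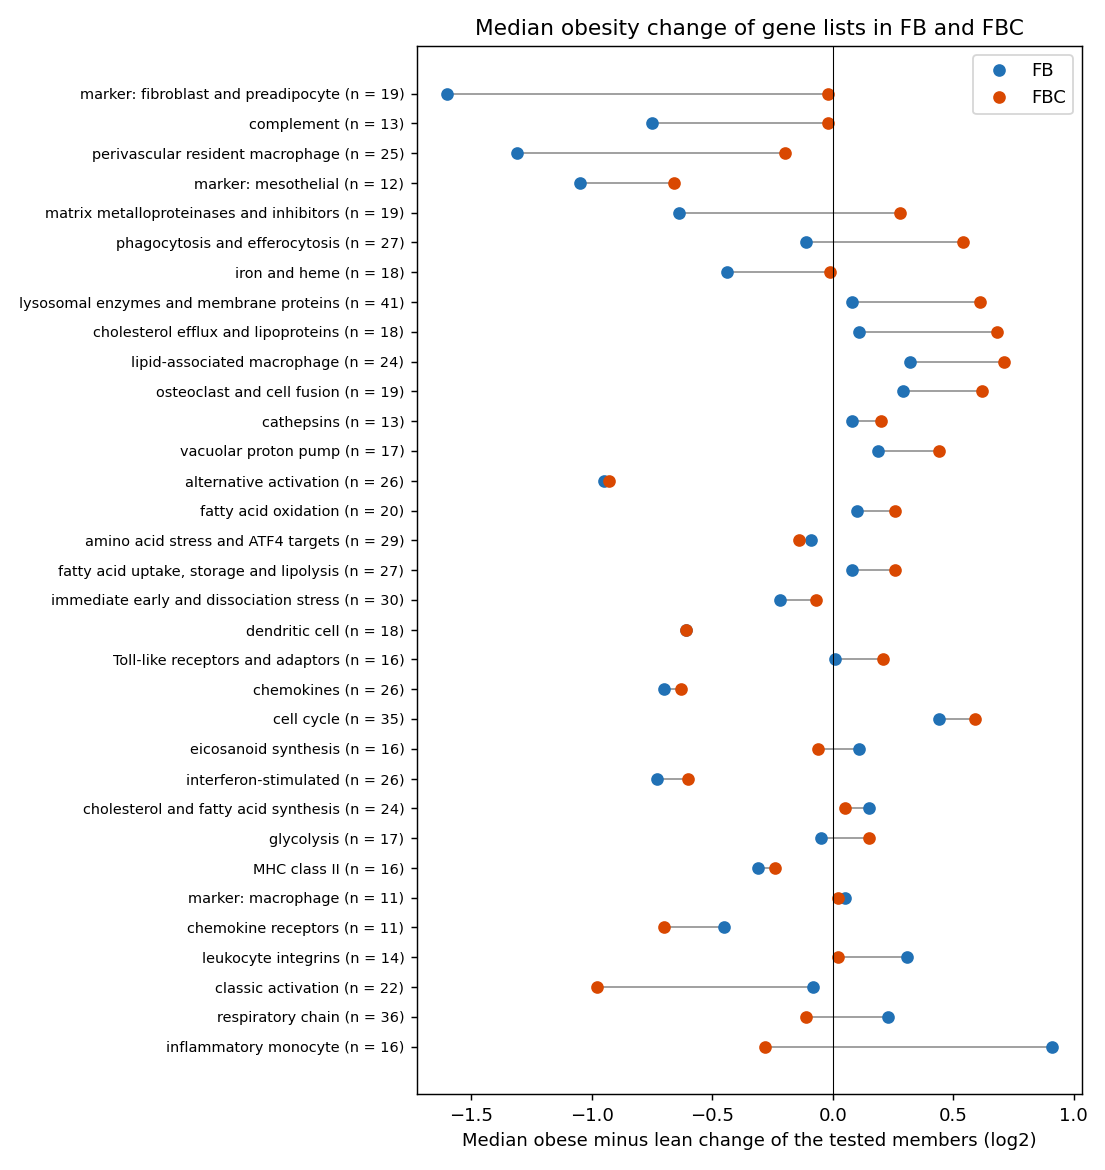
Median obese minus lean change (log2) of the tested members of each gene list with at least 10 of them, in FB (blue) and FBC (orange), ordered by the median difference. The blue and orange points lie farthest apart for fibroblast marker, inflammatory monocyte, perivascular resident macrophage and matrix metalloproteinase genes, and close together for alternative activation and dendritic cell genes.

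Several lists with a large positive median stand beside marker lists of other cells with one. Complement genes had a difference above 0 for 13 of 13 members and a median of 1.46, from -0.75 in FB and -0.02 in FBC. Genes of perivascular resident macrophages had 23 of 25 above 0 and a median of 1.23, from -1.31 and -0.20. Matrix metalloproteinases and inhibitors had a median of 0.77 over 19 members. In limma 0 passed in each of these lists with all arrays, with 6, 6 and 4 higher at an unadjusted p under 0.05 (7.95% of all genes). The medians without lean FB array 4 were 1.81, 1.67 and 0.97. Without the 3 arrays of high actin ratio they were 1.12, 0.88 and 0.66. There the FBC medians of the complement and perivascular lists were -0.52 and -0.65. Lean FBC array 4, left out of that fit, had a summed complement intensity of 12262, against 26628 to 39176 on its group mates. For the perivascular list it was 38357, against 105422 to 108145, so these FBC changes depend on that array. Without lean FB array 4, C2 (2.77 ± 0.71) and Timp2 (1.61 ± 0.41) passed as higher (1.60% of all genes). Clec4n (-1.47 ± 0.26) and Serpinb2 (-2.78 ± 0.54) passed as lower (1.34%). That array was the lowest of lean FB for C2 and Timp2 and the highest for Clec4n and Serpinb2. These calls thus follow in part from the choice of array. Lean FBC array 4, kept there, lay on the same side of its group for each. Without the 3 arrays of high actin ratio, C1qc, C2, C3ar1, Folr2 and Adam8 passed as higher (1.49% of all genes). Clec4n and Serpinb2 passed as lower (1.09%). The medians of these lists kept their sign over the 4 scalings, at 1.10 to 1.47, 1.15 to 1.28 and 0.75 to 0.87.

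Fibroblast and preadipocyte markers had 18 of 19 members above 0 and a median of 1.63, from -1.60 in FB and -0.02 in FBC. In limma 0 passed with all arrays, and 9 were higher at an unadjusted p under 0.05 (7.95% of all genes). Their summed intensity was 15718 to 42782 in lean FB, 9523 to 12627 in obese FB, 14362 to 31822 in lean FBC and 12617 to 32425 in obese FBC, with lean FB array 4 the lowest of its group. Without that array Col1a1, Col6a1 and Lum, which encode proteins of fibrous matrix, passed as higher (1.60% of all genes). Leaving it out moved the median FB change of this list from -1.60 to -2.08, so these calls follow in part from the choice of array. Without the 3 arrays of high actin ratio, Lum alone passed as higher (1.49% of all genes). Mesothelial markers, which line the fat pad, had a median of 0.83 over 12 tested genes and a summed intensity of 1395 to 5158 in lean FB, 311 to 1029 in obese FB, 603 to 3331 in lean FBC and 295 to 1601 in obese FBC. The part of these cells in the results above was not tested.

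The genes that set the sort did not show a called difference with all arrays weighted alike; with array weights that of Adgre1 passed, at 0.77 ± 0.21 (adjusted p = 0.0284). Adgre1 changed by 1.08 ± 0.24 in FBC (adjusted p = 0.00668) and -0.02 ± 0.24 in FB (adjusted p = 0.979), a difference of 1.10 ± 0.33 (adjusted p = 0.179). On the lean FBC arrays it was at 12.67, 12.63, 12.71 and 11.94, with array 4 below the others. Itgax had a difference of 0.71 ± 0.37 (adjusted p = 0.410) and Itgam, which encodes CD11b, one of -0.22 ± 0.41 (adjusted p = 0.842). The 95% intervals, 0.39 to 1.80 for Adgre1, -0.06 to 1.49 for Itgax and -1.08 to 0.64 for Itgam, are not adjusted for the number of genes.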

How the data were processed

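RNA of sorted FB and FBC macrophages was amplified in 2 rounds and hybridised to 1 array per sample, 4 per group. The authors deposited linear intensity values per probe set; per the submitters' processing notes they used Affymetrix Expression Console. How probe pairs were summarised is not stated in the labels, and no detection calls came with the values. The trimmed mean (2%) was 250 on every array. From the deposited intensity, log2(intensity + 16) was taken; its array medians, 5.69 to 6.06, differed by over 0.1, and arrays were quantile-normalized.

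Of 45101 probe sets, 34945 carried 1 gene symbol in the platform annotation, 932 several and 9160 none, and 64 were controls. Per gene (18193 in all) the single-symbol probe set of highest mean was kept. A gene was tested if it exceeded the median of the array on 4 or more of 16 arrays, which held for 11908. A limma model with 4 group means (lmFit and eBayes, 12 residual and 16.5 total degrees of freedom) gave the difference of the obesity changes and both changes, adjusted by Benjamini-Hochberg. The rule named the 12 highest and 12 lowest called differences, up to 5 per response class and 2 per gene list, and the 3 sort genes; clone symbols were left out. The comparison, the members, the lists and the rule were chosen with earlier results of these data known.

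Whether array numbers pair FB with FBC was checked by the correlation of same-numbered residuals. It was 0.135 to 0.595 in lean and -0.137 to 0.310 in obese mice, so the numbers were not taken as pairs. On simulated data of 11908 genes, the difference was recovered for 20 of 100 genes changed by a log2 of 1 and for 72 of 100 changed by 2, with 4 false calls. Precision is limited by the number of arrays, and the p-values describe the spread among arrays, which may be technical in part. Probe sets of Ear3 and Shisa9 (suffix x) and of Rusc2 and Pkp2 (suffix s) may also bind related transcripts. Other settings were the scaling, pseudocount, filter, probe set rule, variance model, array weights, a block, the actin ratio and each array left out. The analysis ran in R 4.3.3 with limma 3.58.1; figures were drawn in Python 3.11.15 by matplotlib 3.10.9.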

Additional observations from a re-analysis of the deposited data

Results flagged for a closer look

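In 5 of 84 groups of 4 arrays checked over the named genes and the sort genes, 1 array lay apart from the rest by more than Dixon's criterion allows; chance alone flags about 1 in 20 groups. Rusc2 was at 5.56 on lean FB array 1 and Lims2 at 5.97 on lean FB array 4, both below the other lean FB arrays. Plcb1 was at 9.55 on lean FB array 4, above the others. Slurp1 was at 4.52 on obese FB array 2, below the others. Adgre1 was at 11.94 on lean FBC array 4, below the others.

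All 18 named genes were flagged for a difference in the obesity change between FBC and FB. They were named because that difference was called, so their passing adds no support. Lif and Pkp2 alone kept the call with each of the 16 arrays left out. The higher values in FBC were 3.61 for Rusc2, 2.93 for Lims2, 2.80 for Pkp2, 2.68 for Htr2b, 2.19 for Mfge8, 1.96 for Slurp1, 1.72 for Shisa9, 1.53 for Mocos, 1.39 for Dpy19l3 and 1.08 for Stab2. The lower values were -1.38 for Ifi209, -1.46 for Crem, -1.90 for Calcb, -1.94 for Ear3, -2.15 for Efnb2, -2.57 for Slc7a11, -2.57 for Plcb1 and -2.72 for Lif.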

How the results depend on the processing

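The count of 19 called differences became 26 without quantile normalization, 27 with median centring, 19 with cyclic loess, 23 with a filter at the 60th percentile, 25 with the mean of probe sets and 22 with the actin ratio as a covariate, which left 12 to 18 of the 19 called. It moved to 4 with a pseudocount of 1, 3 without a filter, 9 with all probe sets singly, 30 with the trend and robust variance model, 1536 with array weights, 300 without the 3 arrays of high actin ratio and, at a threshold of 0.1 chosen after seeing the data, 115. With single arrays left out it ran from 2 to 348. The 14 genes called in FBC and not in FB moved to 2, 2, 7, 24, 655 and 114 under the first 6 of these, and ran from 1 to 169 with single arrays left out; the 0 called in FB and not in FBC became 0, 0, 0, 0, 515 and 117, and ran from 0 to 125. The 701 FB calls moved to 3987 with array weights, 2032 without the 3 arrays, 1159 with the covariate and 1202 at 0.1, and ran from 327 to 1506 with single arrays left out. The 1675 FBC calls moved to 4115 and 2536 under the first 2, and ran from 1035 to 2009. The differences of Plcb1 and Itgam turned sign, to 0.51 on the second Plcb1 probe set and, for Itgam with single arrays left out, in a range of -0.42 to 0.09, the latter without obese FBC array 3. The causes were not tested. Gene lists without lean FB array 4 or the 3 arrays were also chosen after seeing the data. Over the settings and left-out arrays, 287 values of the named genes stayed on their side of the threshold and 221 lost the call with the sign kept.

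Array numbers were not shown to mark mice. With the number within each genotype as a fixed block, 230 differences were called, and with it as a random block (consensus correlation 0.21) 158, of which 104 were called in FBC and not in FB and 30 in FB and not in FBC; all 19 genes were among both. The fixed block gives no obesity change within a population, so response classes have no value there. In lean mice 3 of 4 arrays correlated best with their own number and in obese mice 1 of 4. The signal near background limits the sizes of Htr2b, Shisa9, Slurp1, Rusc2, Pkp2, Calcb and Stab2, and of the falls of Efnb2, Lif and Slc7a11 in FBC.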

Other observations

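Respiratory chain subunits had a median difference of -0.37 over 36 members (-0.60 to -0.30 over 4 scalings), from 0.23 in FB and -0.11 in FBC. In limma 0 were called and 2 were lower at an unadjusted p under 0.05, near the share of all genes (5.28%). Cell cycle genes had a median obesity change of 0.44 in FB and 0.59 in FBC over 35 members, a median difference of 0.11. Iron and heme genes had a difference above 0 for 16 of 18 members (56.0% of all genes) and a median of 0.58. In limma 0 were called and 3 were higher at an unadjusted p under 0.05 (7.95% of all genes). Osteoclast and cell fusion genes had a median of 0.37 over 19 members, and immediate early genes, which tissue digestion can induce, one of 0.16 over 30, which turned to -0.32 with median centring. Ndufb3 of the respiratory chain passed as lower (1.34% of all genes) and Clcn7 of the osteoclast list as higher (1.60%) without lean FB array 4. That array was the highest of lean FB for Ndufb3 and for Nr4a2, given next, and the lowest for Clcn7. Among the immediate early genes, Nr4a2, an early-response nuclear receptor, had a difference of -1.98 ± 0.36 without lean FB array 4 (adjusted p = 0.0138 in limma), against -1.72 ± 0.41 with all arrays (adjusted p = 0.0835); it was singled out after its values were seen.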
